A study of Homo sapiens with 24 samples.

Results

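The G1 cyclins and their kinases were taken as 10 genes: the D cyclins CCND1, CCND2 and CCND3, the E cyclins CCNE1 and CCNE2, the kinases CDK2, CDK4 and CDK6, and the kinase inhibitors CDKN1B (p27) and CDKN2C (p18). Every probe with one of these as its single symbol in the platform annotation was kept, which gave 13 of the 48803 probes of the deposited table and covered 9 of the 10 genes. CDKN2C was not analysed here. The set was put together after a low CCND1 signal had been seen in HIP1-labelled PNT1a cells, with the question whether another D or E cyclin was higher there. The PNT1a contrast of the members is therefore given as a description, without a p-value, and the tests are those in LNCaP and between the lines.

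The 24 arrays fall into 4 groups of 6 biological replicates. The immortalised prostate epithelial line PNT1a held either an empty vector or a HIP1 construct stably, under selection with G418 at 0.8 mg/ml. The prostate cancer line LNCaP received empty vector or HIP1 by transient transfection and was taken on day 4. Both lines grew in RPMI with 10% serum. HIP1 is an endocytic adaptor protein, and the series title ties it to prostate cancer through STAT3. The labels do not say whether the stable lines are single clones or pools, so the clone and the construct cannot be told apart in PNT1a. Line, stable or transient delivery and G418 selection change together, so they cannot be told apart in any comparison between the lines.

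D cyclins bind CDK4 and CDK6 in early G1 and start the phosphorylation of the retinoblastoma protein, which frees E2F transcription factors from repression. E2F then raises the genes of DNA replication and the E cyclins, whose partner CDK2 completes the phosphorylation and drives entry into S phase. The inhibitor p27 binds and restrains cyclin E with CDK2, while p18 binds CDK4 and CDK6. Cyclin D1 is the D cyclin most often discussed in epithelial tumours, and its gene answers to growth factor signalling, to β-catenin with its partners and to STAT factors.

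The promoters of 6 of the 10 members were in the RefSeq table (GRCh38.p14, 250 bases before to 50 bases after the start of the gene). The 3 shown belong to the members whose signal was lower in HIP1-labelled LNCaP cells, CCND3, CCNE1 and CDK4. They are written 5′ to 3′ on the strand of the gene, and capitals mark each GGGCGG, the letters of a GC box bound by SP1, on either strand (GGGCGG or its reverse complement).
CCND3, chr6:42048639-42048938, minus strand: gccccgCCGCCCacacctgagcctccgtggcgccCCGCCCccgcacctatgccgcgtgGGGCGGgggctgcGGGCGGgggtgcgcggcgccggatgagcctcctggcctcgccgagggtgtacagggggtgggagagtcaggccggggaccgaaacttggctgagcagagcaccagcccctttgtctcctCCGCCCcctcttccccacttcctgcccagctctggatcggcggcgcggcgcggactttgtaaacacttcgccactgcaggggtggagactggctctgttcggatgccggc
CCNE1, chr19:29811741-29812040, plus strand: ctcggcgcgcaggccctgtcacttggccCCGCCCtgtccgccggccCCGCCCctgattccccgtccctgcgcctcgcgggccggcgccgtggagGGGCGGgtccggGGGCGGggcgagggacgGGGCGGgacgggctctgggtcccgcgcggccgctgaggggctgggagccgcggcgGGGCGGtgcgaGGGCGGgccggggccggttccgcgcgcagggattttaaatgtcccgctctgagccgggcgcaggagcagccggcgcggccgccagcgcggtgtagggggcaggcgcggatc
CDK4, chr12:57752261-57752560, minus strand: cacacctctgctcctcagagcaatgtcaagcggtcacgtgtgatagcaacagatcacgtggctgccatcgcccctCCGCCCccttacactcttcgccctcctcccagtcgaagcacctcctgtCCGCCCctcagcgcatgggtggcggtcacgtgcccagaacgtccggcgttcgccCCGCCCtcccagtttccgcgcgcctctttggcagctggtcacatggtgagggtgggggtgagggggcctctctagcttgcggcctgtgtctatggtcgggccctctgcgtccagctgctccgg
These windows held 5, 7 and 3 copies. At least 1 copy stood in 45% of 35116 promoters of this length, so its presence does not mark the members. The CDK6 window held 3 copies, the CDKN1B window 1 and the CDKN2C window 0. Searched on both strands, the E2F letters TTTCGCGC, TTTGGCGC and TTTCCCGC (at least 1 of these in 2.74% of promoters), the AP-1 letters TGANTCA (7.71%) and the STAT letters TTCNNNGAA (7.66%) were in 0 of the 6 windows.

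Values are deposited log2 probe intensities, and a probe counts as above background over 6.97, set at 3 SDs above the mode of all values. Each array had 12097 to 12105 probes above that level, and every array had a median of 6.56, since the deposited values share a single distribution. Fold changes are of the signal with its background, which brings them closer to 1 for dim probes. The array numbered 6 in each PNT1a group stood apart: its mean correlation with its own group was 0.942 with vector and 0.919 with the HIP1 label, while the remaining PNT1a arrays reached 0.973 or more. Member differences in PNT1a are given with and without both. In LNCaP, vector arrays 3 and 4 and HIP1-labelled array 4 had been seen to cluster, with mean correlations from 0.990 to 0.991 in a line that reached 0.994. Vector array 6 was also at 0.991 and was kept, so these correlations alone do not set the 3 apart. Values without these 3 are given where the call of a member changes. The probe for HIP1 (ILMN_1701403) was at 7.69 ± 0.21 in PNT1a vector arrays and 7.79 ± 0.35 in HIP1-labelled ones (mean ± SD, n = 6), and at 7.40 ± 0.16 and 7.29 ± 0.15 in LNCaP. Neither difference passed the test (limma adjusted p = 0.703 and 0.451), so this probe gave no check of the HIP1 label, and where the probe lies relative to the construct is not known here. Of 6 luminal markers measured, all 6 were above background on all 12 LNCaP arrays. In PNT1a, KLK3, KLK2 and TMPRSS2 were below it on all 12, while KRT8 was above it on all 12 (11.15 with vector and 10.37 with the HIP1 label, against 9.60 and 9.48 in LNCaP) and KRT18 on 5 of 6 in each group. FOLH1 was above background on 2 of the 6 PNT1a vector arrays and on 0 of the 6 HIP1-labelled ones. Of the markers of basal or immortalised epithelium, KRT5, KRT14 and KRT19 were below background on all 24 arrays. KRT15 was above it on all 6 HIP1-labelled PNT1a arrays (mean 7.41) and on 0 of the 6 with vector. VIM was above it on every array, at 12.71 with vector and 11.88 with the HIP1 label in PNT1a, against 7.63 and 7.94 in LNCaP. The stromal markers COL1A1 and PDGFRB and the leukocyte marker CD14 were above background on all 12 PNT1a arrays, while PTPRC, CD3E, LYZ, COL1A2, DCN and LUM were below it on all 24. COL1A1 read 7.83 with vector and 7.49 with the HIP1 label, and CD14 9.53 and 10.06. The part of these markers in the member values was not tested.

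Among the D cyclins, CCND1 was far lower in HIP1-labelled PNT1a cells, CCND3 was lower as well, and CCND2 was at background throughout. CCND1 (ILMN_1688480, cyclin D1) ranged from 11.05 to 11.64 in the PNT1a vector arrays, with a median of 11.32. In the HIP1-labelled arrays it ranged from 7.69 to 8.83, with a median of 8.07. The groups did not overlap, and every HIP1-labelled array was still above background. Their means were 11.30 ± 0.21 and 8.13 ± 0.45 (SD, n = 6), a log2 difference of -3.17 (SE 0.18), or a signal 9.02-fold lower. Without both arrays 6 the difference was -3.25. A culture is measured as a whole, so fewer cells with the transcript and less transcript per cell cannot be told apart here or below.

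In LNCaP the CCND1 signal was the highest of the 4 groups and was close in vector and HIP1-labelled cells. Vector arrays read from 11.75 to 12.12 and HIP1-labelled arrays from 11.92 to 12.19, and the groups overlapped. The means were 11.93 ± 0.14 and 12.01 ± 0.09 (SD, n = 6). Their log2 difference of 0.09 had a 95% interval of -0.06 to 0.24 and did not pass the test (limma adjusted p = 0.518, and 0.291 to 0.913 over 20 alternative settings), which leaves room for a change from 0.959-fold to 1.18-fold. In order of level, CCND1 stood lowest in HIP1-labelled PNT1a, then in PNT1a with vector, then in both LNCaP groups. Each of these steps separated the groups without overlap, while the LNCaP groups overlapped each other.

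CCND3 (ILMN_1668721, cyclin D3) was lower with the HIP1 label in both lines, by less than CCND1 in PNT1a. Its PNT1a vector arrays ranged from 12.46 to 12.78 (median 12.58), and its HIP1-labelled arrays from 11.72 to 11.88 (median 11.78). The groups did not overlap, and the mean was lower by -0.81 on the log2 scale (SE 0.08, 1.75-fold, and -0.79 without both arrays 6). In LNCaP the vector arrays lay between 10.99 and 11.29 and the HIP1-labelled arrays between 10.77 and 11.10, with 5 of the 6 below every vector array. CCND3 fell there by 0.27 (95% interval -0.42 to -0.12, limma adjusted p = 0.0242), a 1.2-fold lower signal. That call held in 12 of 20 alternative settings, with adjusted p from 0.0102 to 0.0644. It was lost without LNCaP HIP1-labelled array 1 (adjusted p = 0.0622) or 6 (0.0625), or without vector array 2 (0.0644), 4 (0.0533) or 5 (0.0573). It was also lost without the 3 arrays that cluster (-0.26, adjusted p = 0.0643), in the fit that pools the spread of both lines (0.0554) and without the filter on dim probes (0.0623). The 4 group levels of CCND3 ran from PNT1a vector at the top to HIP1-labelled LNCaP at the bottom, with overlap only between the LNCaP groups.

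CCND2, the D cyclin best known from gonads, B cells and brain, was measured by probes ILMN_1667081 and ILMN_2067656. Both were below background on all 24 arrays, between 6.41 and 6.84 for the first and between 6.21 and 6.69 for the second. No D cyclin probe was therefore higher in HIP1-labelled than in vector PNT1a cells above background. What these probes can show is limited to signal over 6.97.

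**Figure D1:**
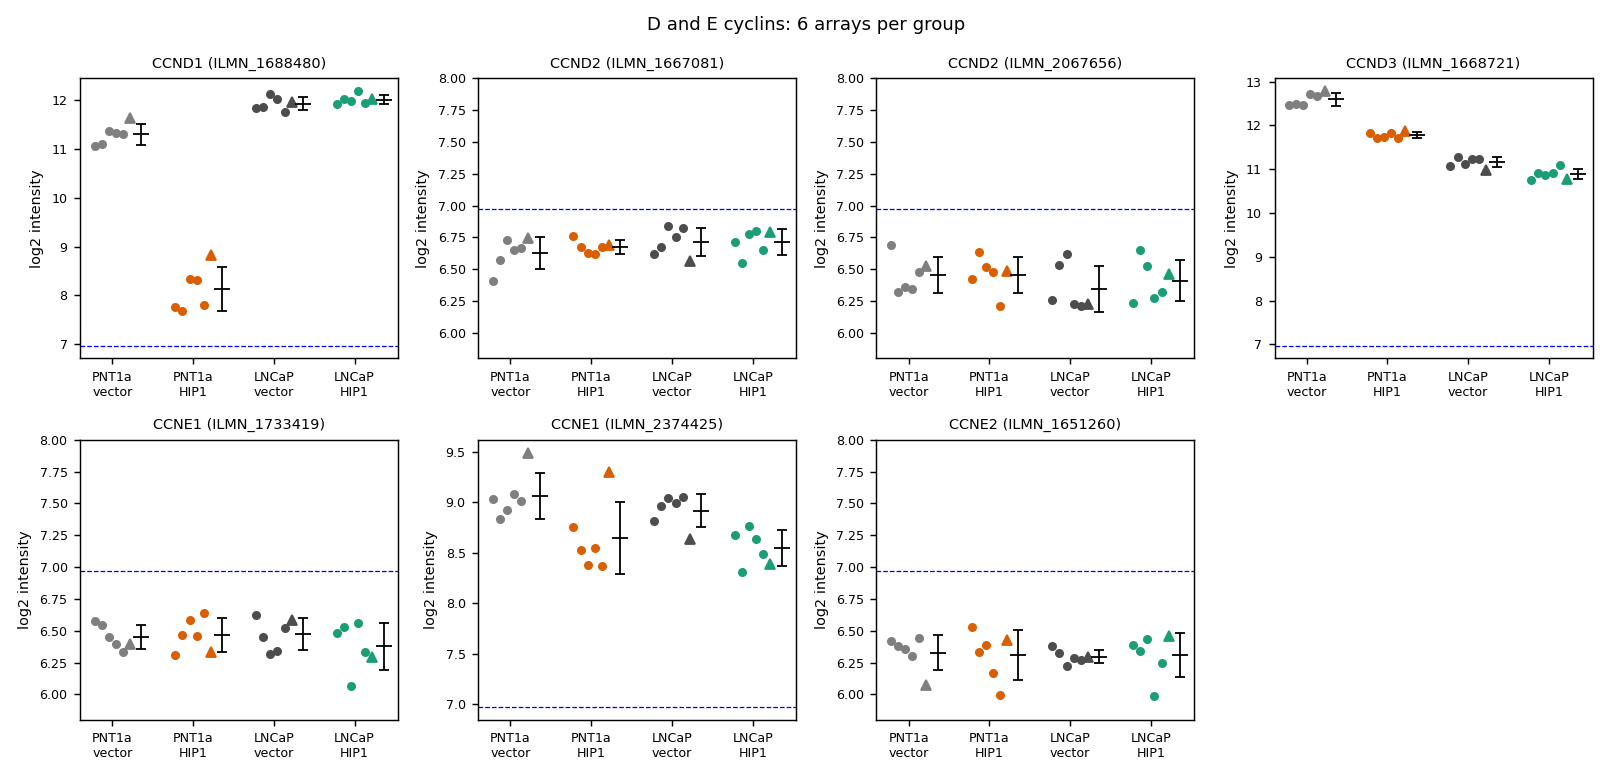
Log2 intensity (vertical axes) of the D and E cyclin probes on each array of the 4 groups (horizontal axes). Dots are arrays 1 to 5, triangles array 6, black bars the mean ± SD of 6 arrays, and the dashed line the background level of 6.97. CCND1 differs with the HIP1 label in PNT1a and overlaps between the LNCaP groups, CCND3 is lower with the HIP1 label in both lines, and the probes of CCND2 and CCNE2 stay under the line on all arrays.

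Of the E cyclins, only CCNE1 gave a signal, and it was not higher with the HIP1 label in either line. CCNE1 probe ILMN_2374425 (cyclin E1) ranged from 8.83 to 9.49 in PNT1a vector arrays (median 9.02) and from 8.37 to 9.30 in HIP1-labelled ones (median 8.53). In 5 of the 6 HIP1-labelled arrays it was below every vector array, and array 6 was the exception at 9.30. The log2 difference was -0.42 (SE 0.16) with all arrays and -0.46 (SE 0.09) without both arrays 6. In LNCaP, CCNE1 read 8.92 ± 0.16 with vector and 8.54 ± 0.18 with the HIP1 label (SD, n = 6), and 3 HIP1-labelled arrays were below every vector array. It fell by 0.37 (95% interval -0.56 to -0.19, limma adjusted p = 0.0113), a 1.3-fold lower signal. The call held in 19 of 20 alternative settings (adjusted p from 0.00251 to 0.168) and was lost in the fit that pools the spread of both lines (adjusted p = 0.168). The second CCNE1 probe, ILMN_1733419, and the probe of CCNE2 (ILMN_1651260, cyclin E2) were below background on all 24 arrays, between 5.99 and 6.64. Of the cyclins measured above background, CCND1, CCND3 and CCNE1, none had a higher mean in HIP1-labelled PNT1a cells.

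Among the kinases, CDK4 was slightly higher with the HIP1 label in PNT1a and slightly lower in LNCaP. CDK4 (ILMN_1689001), the partner of the D cyclins, ranged from 11.05 to 11.33 in PNT1a vector arrays and from 11.35 to 11.61 in HIP1-labelled ones. The groups did not overlap, and the log2 difference was 0.28 (SE 0.08), or 1.21-fold, and 0.27 without both arrays 6. In LNCaP the vector arrays ranged from 11.13 to 11.37 and the HIP1-labelled arrays from 10.86 to 11.13, again without overlap, with the lowest vector array just above the highest HIP1-labelled one. CDK4 fell there by 0.25 (95% interval -0.39 to -0.12, limma adjusted p = 0.0226), a 1.19-fold lower signal. The call held in 14 of 20 alternative settings (adjusted p from 0.0111 to 0.0681). It was lost without HIP1-labelled array 2 (0.0581) or 6 (0.0613) and without vector array 1 (0.0568) or 2 (0.0503), in the fit that pools both lines (0.0505) and without the filter on dim probes (0.0681). The difference between the lines in this effect was not tested.

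CDK2, the partner of the E cyclins, had 2 probes that were close between the PNT1a groups. ILMN_1665559 read 11.33 ± 0.18 with vector and 11.26 ± 0.17 with the HIP1 label (SD, n = 6), and ILMN_1653443 read 9.52 ± 0.60 and 9.53 ± 0.81. The wide spread of the second probe came with arrays 6, which stood at 8.38 and 7.90 while the other 10 lay between 9.48 and 10.10. The first probe showed no such gap, so the probes disagree about arrays 6. Their log2 differences were -0.07 (SE 0.11) and 0.00 (SE 0.36) with all arrays, and -0.11 and 0.098 (SE 0.12) without both arrays 6. The sign of the second probe is not settled, since it was -0.23 without vector array 6 and 0.33 without HIP1-labelled array 6. In LNCaP both probes had lower means with the HIP1 label, by log2 differences of -0.28 (95% interval -0.49 to -0.08, limma adjusted p = 0.0879) and -0.19 (-0.43 to 0.05, adjusted p = 0.354). Neither passed the test in LNCaP. Both did without the 3 arrays that cluster (adjusted p = 0.0184 and 0.0182), and the first also did without vector array 3 (0.0425) and with array weights (0.0278). Over 20 alternative settings the adjusted p ran from 0.0184 to 0.222 for the first and from 0.0182 to 0.901 for the second.

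CDK6 (ILMN_1802615), the other D cyclin kinase, was dim in PNT1a and below background on all 12 LNCaP arrays. It ranged from 6.95 to 7.90 in PNT1a vector arrays and from 6.99 to 7.83 in HIP1-labelled ones, and the groups overlapped over nearly their whole ranges (log2 difference -0.21, SE 0.18, and -0.25 without both arrays 6). In the LNCaP groups its means were 6.52 and 6.58. With vector the PNT1a signal was at least 1.51-fold that of LNCaP, taking the lowest signal over background for LNCaP.

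CDKN1B, which encodes p27, had higher means with the HIP1 label in both lines on its bright probe, ILMN_1722811. In PNT1a the vector arrays ranged from 8.81 to 9.95 (median 9.86) and the HIP1-labelled arrays from 9.46 to 10.41 (median 10.33), and 5 of the 6 were above every vector array. The lowest value of each group was array 6. The log2 difference was 0.50 (SE 0.21) with all arrays and 0.47 (SE 0.07) without both arrays 6. In LNCaP the vector arrays ranged from 9.84 to 10.15 and the HIP1-labelled arrays from 10.04 to 10.25, with overlap only through vector array 6 at 10.15. The log2 difference of 0.22 (95% interval 0.07 to 0.36) did not pass the test (limma adjusted p = 0.0558). Without vector array 6 it was 0.26 and passed (adjusted p = 0.0110), as it did without HIP1-labelled array 4 (0.0450). It passed in 5 of 20 alternative settings, with adjusted p from 0.0110 to 0.688. The second probe, ILMN_2196347, was close to background, with group means from 7.04 to 7.23. Its PNT1a difference was 0.20 (0.23 without both arrays 6), and its LNCaP difference was 0.05 (adjusted p = 0.816).

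**Figure D2:**
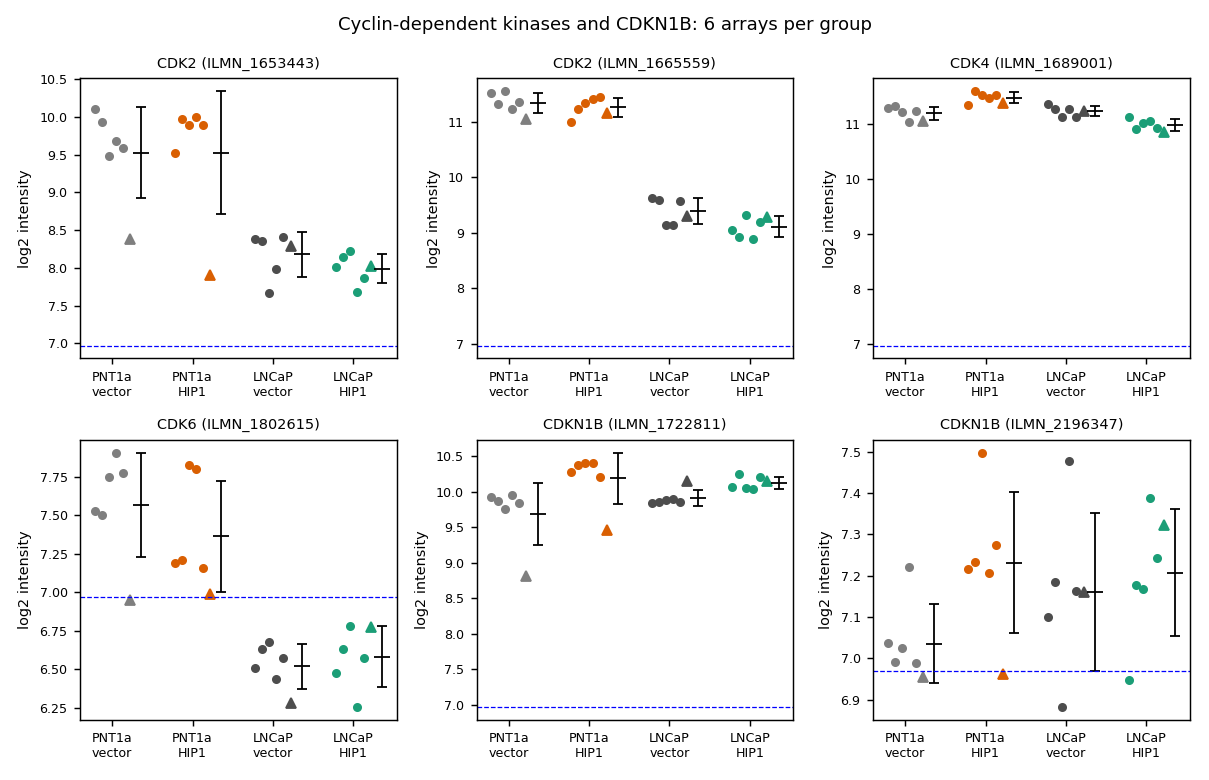
Log2 intensity (vertical axes) of the kinase and CDKN1B probes on each array of the 4 groups (horizontal axes), with dots for arrays 1 to 5, triangles for array 6, black bars for the mean ± SD of 6 arrays and a dashed line at the background level of 6.97. CDK4 parts the groups in opposite directions in the lines, and arrays 6 of PNT1a lie low for CDKN1B (ILMN_1722811) and for one CDK2 probe.

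Counted over probes, 9 member probes of 7 genes were tested in PNT1a. There, 1 (CDK4) was past the threshold upward and 2 (CCND1 and CCND3) downward, against 14.2% and 13.4% of the 12219 probes tested. The groups of the same probes did not overlap, which held upward for 7.93% and downward for 7.45% of all probes. The member set was chosen from this contrast, so nothing is read from those counts. In LNCaP, 8 probes of 6 genes were tested. Of these 3 fell (CCND3, CCNE1 and CDK4), against 4.18% of 12013 probes, and 0 rose, against 3.15%, with 1 (CDKN1B) higher and 4 lower at an unadjusted p under 0.05 in limma, the tool used throughout. The groups did not overlap for 1 member probe, CDK4, with the HIP1-labelled arrays below (2.54% of all probes), and for 0 with them above (1.5%). The median log2 difference of the tested member probes was -0.22 in LNCaP and -0.07 in PNT1a, beside 0.01 and 0.00 over all probes tested. Of the 3 genes that fell in LNCaP, CCND3 and CCNE1 also had a lower mean with the HIP1 label in PNT1a, and CDK4 a higher one.

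**Figure D3:**
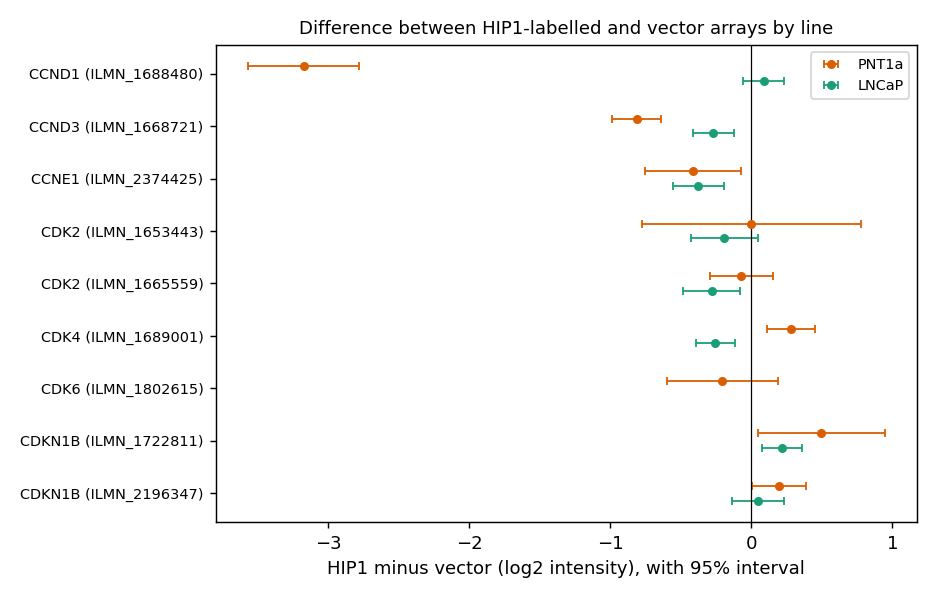
Log2 difference between HIP1-labelled and vector arrays (horizontal axis) for each member probe tested, by line, with bars for the 95% interval of each limma fit. CCND1 in PNT1a lies at -3.17, far from every other probe, and CDK4 lies on opposite sides of 0 in the lines.

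With the empty vector, the lines differed in CCND3 and CDK2 and not detectably in CCNE1, CDK4 or CDKN1B. The vector was stable under G418 in PNT1a and transient in LNCaP, so line, delivery and selection cannot be told apart here. Both CDK2 probes and CCND3 were lower in LNCaP than in PNT1a: CCND3 by a log2 difference of -1.44 (2.72-fold, limma adjusted p = 2.11e-10), CDK2 by -1.94 on ILMN_1665559 (3.83-fold, 2.6e-10) and by -1.34 on ILMN_1653443 (2.53-fold, 7.54e-05). CCND3 and the brighter CDK2 probe did not overlap between the lines. CCND1 was higher in LNCaP by 0.63 without overlap, given here as a description. The other members tested did not differ past the threshold: CCNE1 by -0.14 (95% interval -0.37 to 0.09), CDK4 by 0.04 (-0.12 to 0.19), and CDKN1B by 0.22 (-0.12 to 0.56) and 0.13 (-0.06 to 0.31) on its probes. Their adjusted p ran from 0.21 to 0.639. Leaving CCND1 out, 3 of 7 probes fell and 0 rose (also 0 at an unadjusted p under 0.05), against 36.1% and 40.1% of the 12817 probes tested, so a fall of this kind was common between the lines. Groups without overlap, as for CCND1 upward and for CCND3 and a CDK2 probe downward, were as common, at 31.7% and 27.8% of all probes.

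The genes that act downstream of the G1 kinases moved in LNCaP. All 20 measured G1/S target genes of E2F fell with the HIP1 label and 0 rose (0 also at an unadjusted p under 0.05). Over all probes tested in LNCaP, 4.18% fell and 3.15% rose. The median log2 difference of the list was -0.46, beside 0.01 over all probes. Each gene is represented by its brightest probe. CDC45 and MCM2, parts of the replicative helicase, fell by 0.68 and 0.67, MCM5 by 0.66, and TK1, the thymidine kinase of the salvage pathway, by 0.66. From 15 to 20 of the 20 fell under the alternative settings, and from 18 to 20 with any one array left out. In PNT1a 21 of these genes were measured, with a median of -0.07: 1 was past the threshold upward (CDC45, 0.29) and 1 downward (CDC25A, a phosphatase that activates CDK2, -0.45). All probes tested in PNT1a gave 14.2% upward and 13.4% downward. CDC45 no longer passed in PNT1a without HIP1-labelled array 1, 2 or 5 or without vector array 1, 3, 4 or 5. Without both arrays 6 the list had 2 genes past the threshold upward and 3 downward in PNT1a. The lists were drawn up with earlier results of these data known, so their counts are a description and not independent support.

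Of the cyclins and kinases of S, G2 and M phase, 4 of 7 measured genes fell in LNCaP and 0 rose (0 also at an unadjusted p under 0.05). The shares over all probes tested there were 4.18% and 3.15%. CCNA2 (cyclin A2) fell by 0.59, CDK1, the mitotic kinase, by 0.50, CCNB2 (cyclin B2) by 0.43 and CCNF (cyclin F) by 0.37. The calls of CDK1 and CCNF were lost in the fit that pools both lines (adjusted p = 0.105 and 0.108), and a second CDK1 probe read -0.16 (adjusted p = 0.359). In PNT1a, 2 of 9 were past the threshold, both downward, CCNA1 at -0.66 and CCNA2 at -0.43. Of all probes tested there, 13.4% were past it downward and 14.2% upward, so the count is no result about this list. The CCNA1 mean with the HIP1 label, 6.90, was under the background level, so its difference is limited by background. CCNA2 is the gene of this list that was past the threshold downward with the HIP1 label in both lines.

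Of the pocket proteins and E2F factors in PNT1a, 5 of 10 were past the threshold upward and 1 downward. Over all probes tested in PNT1a these shares were 14.2% and 13.4%. TFDP2, a partner of E2F, was higher by 0.57, the pocket protein RBL2 (p130) by 0.54 and the activator E2F2 by 0.47, while TFDP1 was lower, at -0.50. Among all probes tested in LNCaP, 4.18% fell and 3.15% rose. Of this list, 2 of 10 fell there, E2F2 by 0.58 and the repressor E2F7 by 0.43, and 0 rose (1 at an unadjusted p under 0.05). E2F2 was thus on opposite sides in the lines.

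Other inhibitors of the kinases showed no common direction. In PNT1a, CDKN2B (p15) was higher by 0.60 and CDKN2A (p16 and ARF) by 0.44, and CDKN2D (p19) was lower, at -0.60, among 5 measured. A second CDKN2A probe read 0.49 and was not past the threshold, while a second CDKN2B probe read 0.37 and was. The shares past the threshold over all probes tested there were 14.2% upward and 13.4% downward. In LNCaP, CDKN1A (p21) rose by 0.35 (limma adjusted p = 0.0100) and CDKN3, a phosphatase that acts on the kinases, fell by 0.49. These were 1 of 5 measured in each direction, against 3.15% upward and 4.18% downward over all probes tested. The CDKN1A call was lost in the fit that pools both lines (adjusted p = 0.352).

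Genes for the turnover of cyclins and p27 gave few calls. Among all probes tested in PNT1a, 14.2% were past the threshold upward and 13.4% downward. Of the 9 turnover genes measured there, 0 were past it (1 higher and 1 lower at an unadjusted p under 0.05). That count depends on single arrays: 2 were higher without HIP1-labelled array 6, 1 was higher without vector array 4, 1 was lower without HIP1-labelled array 3, and 2 were higher and 1 lower without both arrays 6. As values in PNT1a, CKS2 stood at a log2 difference of -0.48 (-0.44 on another probe). CKS1B stood at 0.29 there (0.24 on another probe), and neither gene was past the threshold with all arrays. Of 10 in LNCaP, CKS2, a subunit bound to the kinases, fell by 0.25 (limma adjusted p = 0.0152) and 0 rose (0 also unadjusted). All probes tested in LNCaP gave 4.18% downward and 3.15% upward. The CKS2 call was lost in the pooled fit (0.465) and without the filter on dim probes (0.0541). The count was 2 without LNCaP HIP1-labelled array 1, 3 or 4 or vector array 6, and 2 without the 3 arrays that cluster.

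Among 14 transcription factors known to act on CCND1 and measured in PNT1a, 2 were past the threshold downward and 1 upward. These shares are near those over all probes tested in PNT1a, 13.4% downward and 14.2% upward, so they are no result about the factors. LEF1, the DNA-binding partner of β-catenin, was above background in vector arrays and below it on all 6 HIP1-labelled arrays, a signal at least 1.64-fold lower. FOSL1, an AP-1 subunit, was lower, at -0.96, and SP1 was higher by 0.39. The FOSL1 call was lost without HIP1-labelled array 1, 2, 3, 4 or 5, and also without the filter on dim probes. That of SP1 was lost without vector array 3 or 4. The downward count was 1 without HIP1-labelled array 1, 2 or 5 or vector array 1, 2, 3, 4 or 5. STAT3, singled out because the series title names it and after its values were seen, stood at a log2 difference of 0.18 in PNT1a and 0.13 in LNCaP and was not among those past the threshold in either line. Over all probes tested in LNCaP, 3.15% rose and 4.18% fell. Of the factors there, 1 of 10 rose, the AP-1 subunit FOS by 0.49 (limma adjusted p = 0.0047), and 0 fell (2 at an unadjusted p under 0.05). Without vector array 1 the counts were 2 and 1, and 1 fell without HIP1-labelled array 5. The FOS call was lost in the fit over both lines (0.850). None of these values bears on the activity of the factors, and their part in the CCND1 level was not tested.

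**Figure D4:**
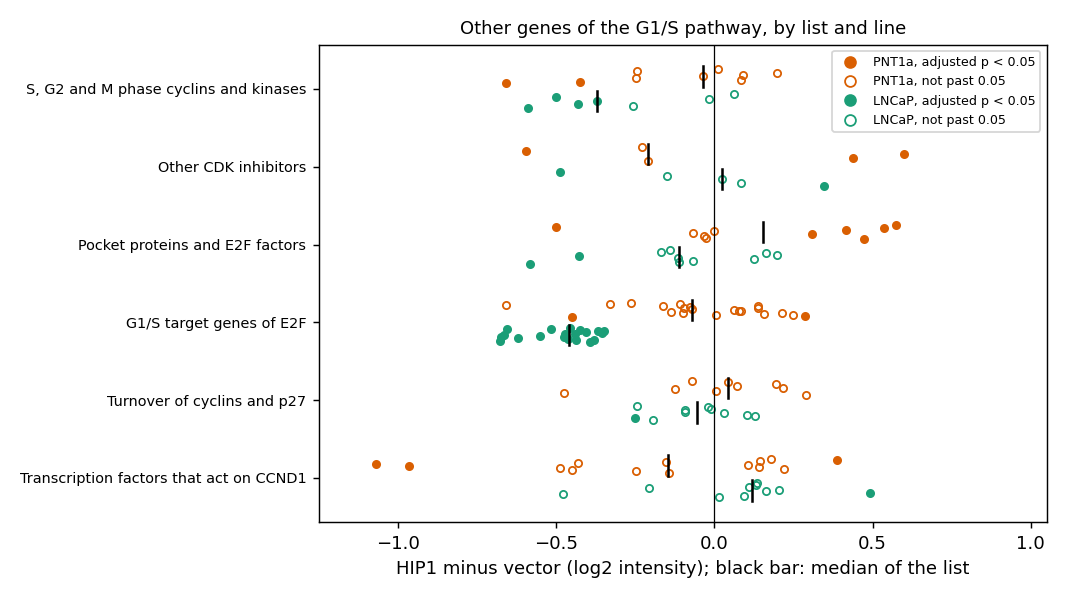
Log2 difference between HIP1-labelled and vector arrays (horizontal axis) for each measured gene of the 6 pathway lists (vertical axis). Each gene is 1 point in PNT1a and 1 in LNCaP, where measured. All 20 G1/S target genes of E2F lie left of 0 in LNCaP, around a median of -0.46, while in PNT1a they lie on both sides of 0 around -0.07.

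The probes whose pattern was most like that of CCND1 over the 24 arrays were found by the root mean square difference between mean-centred log2 profiles, out of 12205 probes of other genes with a single symbol and a signal above background on at least 6 arrays. CCND1 itself had a root mean square of 1.61 about its mean. The nearest were NDN (0.562), GSPT2 (0.657), ECHDC2 (0.745) and JUP (0.748). NDN read 9.07 ± 0.29 in PNT1a vector arrays, 6.31 ± 0.14 in HIP1-labelled ones, and 10.87 ± 0.14 and 10.88 ± 0.10 in LNCaP (SD, n = 6). JUP (plakoglobin, a junction protein related to β-catenin) read 9.20 ± 0.24, 8.03 ± 0.14, 10.92 ± 0.07 and 10.92 ± 0.11 in the same order. Each shared with CCND1 a low level in HIP1-labelled PNT1a and a high level in both LNCaP groups. The genes were picked by likeness to CCND1 over these same arrays, so that shared pattern follows from the choice. NDN and GSPT2 had group means below background where CCND1 was still above it.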

How the data were processed

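RNA of 24 cultures was hybridised to Illumina arrays as biotin-labelled cRNA, per the labels. The authors deposited log2 values for 48803 probes, and the sources used here do not give the software or the normalization behind them. Per the file headers, a second deposited table holds raw intensity for 49895 entries. Of its 24 value columns, 6 match the labels (LNCaP with HIP1) and served to learn the scale, and 18 do not and were not used. Its detection p columns hold 0 filled cells. Percentiles of log2 raw intensity differed from the deposited ones by -0.163 to 0.117.

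Probes were tested in a contrast when they lay above 6.97 (mode 6.48 plus 3 SDs of 0.163) on at least 6 of its 12 arrays. Group means were fitted with limma 3.58.1 in R 4.3.3, each line alone since within-group spread is wider in PNT1a, and the vector arrays of both lines in another fit. All adjusted p are limma's, two-sided, by Benjamini-Hochberg over all probes tested, with calls at 0.05. The fit was tested on simulated data. The number of arrays limits the precision. Values below background have only a bound: the lowest signal over background stands in for the dim group.

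The annotation gives 28098 probes a single symbol, 13 several and 20692 none. The gene IDs of 28059 matched RefSeq, which changed 0 symbols. A list gene was taken by its brightest probe. The genes named from a list are up to 4 past the threshold, by size, or else 2 as values. The 4 genes most like CCND1, HIP1, and luminal, basal, stromal and leukocyte markers are also named. Members, lists and tests were chosen with earlier results of these data known. Alternatives were 1 fit over 24 arrays, no filter on dim probes, a level at 5 SDs, cyclic loess, array weights, a trend with a robust prior, the replicate number as a block, arrays that stand apart left out, and each array left out in turn.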

Additional observations from a re-analysis of the deposited data

Results flagged for a closer look

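The groups of 6 arrays of each member probe were examined, 52 in all. In each group the highest and the lowest array were set against the gap to the next one. This picked out 7 groups, while chance picks out about 5% of such groups. Arrays 6 of PNT1a recur among the 7, so these groups are not independent of each other. Array 6 of the PNT1a vector group was far below the others for CCNE2 (6.07, itself under background), for CDK2 probe ILMN_1653443 (8.38, with the next at 9.48) and for CDKN1B probe ILMN_1722811 (8.81, next 9.75). Array 6 of the HIP1-labelled PNT1a group was far below the others for the same CDK2 probe (7.90, next 9.52) and the same CDKN1B probe (9.46, next 10.21). These are the arrays with the lowest correlation to their groups. In LNCaP, vector array 6 was far above the others for CDKN1B probe ILMN_1722811 (10.15, next 9.89). PNT1a vector array 4 was above the others for CDKN1B probe ILMN_2196347 (7.22, next 7.04), close to background.

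The CDK4 probe had all 6 HIP1-labelled arrays above all vector arrays in PNT1a (log2 difference 0.28) and all 6 below them in LNCaP (-0.25). The difference between the lines was not tested.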

How the results depend on the processing

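CCND1, CCND3 and the between-line differences of CCND3 and CDK2 kept their direction in every alternative run. In PNT1a the members past the threshold upward went from 1 to 2 in the fit over all 24 arrays and with the replicate block, and to 3 with array weights and without both arrays 6, and those downward from 2 to 4 with array weights and to 3 in the fit over all 24 arrays, with the replicate block and without both arrays 6. Over all probes the PNT1a count of 3365 became 6050 with array weights and 5227 without both arrays 6. In LNCaP the members that fell went from 3 to 0 in the fit over all 24 arrays and to 1 without the filter on dim probes, and those that rose from 0 to 1 with array weights, with the level at 5 SDs and with the trend and robust prior. The LNCaP count over all probes went from 880 to 235 in the fit over 24 arrays and to 549 without the filter. In the fit over 24 arrays both lines share a single spread pooled over all groups. The SE of the CCND1 difference went there from 0.18 to 0.14 in PNT1a and from 0.07 to 0.14 in LNCaP. With each array left out in turn, PNT1a had 1 to 3 members upward, 2 to 3 downward and 2694 to 4563 probes in all. LNCaP had 0 to 1, 1 to 4 and 518 to 1198, and the vector arrays of both lines 0 to 0, 3 to 3 and 8626 to 9393. Signs of member differences turned for 3 probes: the PNT1a difference of CDK2 probe ILMN_1653443 (0.000874, which was -0.0096 under cyclic loess and ran from -0.23 to 0.33 with an array left out), the LNCaP difference of CDKN1B probe ILMN_2196347 (-0.00977, adjusted p = 0.966, without LNCaP vector array 3, and at most 0.11 with another array left out) and the difference of CDK4 between lines (-0.019, adjusted p = 0.819) under cyclic loess. Same-numbered arrays did not all deviate together (r from -0.04 to 0.70 in PNT1a, the highest being arrays 6, and from -0.24 to 0.32 in LNCaP), so the numbers were not taken as pairs. With the replicate block the count over all probes was 4440 in PNT1a and 868 in LNCaP, and the SE of the PNT1a difference went from 0.16 to 0.086 for CCNE1 and from 0.21 to 0.078 for CDKN1B probe ILMN_1722811. The causes of these changes were not tested. Probes below background set the limit for CCND2, CCNE2 and, in LNCaP, CDK6.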
